A study of Mus musculus with 33 samples.

Results

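Genes of the proteasome were followed through fasting, refeeding and rapamycin treatment in mouse liver. The members were all probe sets whose single gene symbol begins with Psma, Psmb, Psmc, Psmd, Psme, Psmf or Psmg, which gave 58 of the 12488 probe sets on the Affymetrix MG-U74Av2 array and 46 of the 8252 genes that carry a single symbol. RNA came from the livers of 33 male adult mice, 1 array a mouse, in 11 groups.

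Rapamycin (10 mg per kg) was injected into 3 mice a time point after 22 h without food. At 2 h after the injection they were killed (called 0 h) or given food, and the fed mice were killed after 3 h, 6 h or 12 h of refeeding. A further 2 nonfasted mice received rapamycin and were killed 24 h after it. The vehicle groups (saline with ethanol) had the same sizes and times, with 3 mice each at 0, 3, 6 and 12 h of refeeding and 2 nonfasted mice. The last group held 5 mice that were fasted for 24 h without any injection. The labels name no strain, and the hour of the day at killing was not given in the sources used here. No source gives animal cages or litters, so p-values measure the spread between these mice and arrays.

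The proteasome is the barrel-shaped protease that degrades ubiquitin-tagged proteins. Its core particle stacks outer rings of alpha subunits (Psma genes) on inner rings of beta subunits (Psmb genes), and the beta subunits Psmb5, Psmb6 and Psmb7 carry the active sites. A regulatory cap with a ring of ATPases (Psmc genes) and non-ATPase subunits (most Psmd genes) binds, deubiquitinates and unfolds substrates. Interferon and immune signals induce Psmb8, Psmb9 and Psmb10, which replace Psmb5, Psmb6 and Psmb7 in newly built particles to form the immunoproteasome, as well as Psme1 and Psme2, subunits of an alternative cap. The immunoproteasome is known for producing peptides for MHC class I molecules. In liver, protein breakdown changes between the fasted and the fed state, and rapamycin inhibits the mTORC1 kinase, which couples nutrients to growth.

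Promoters of the inducible genes and of Psmb5 are shown because the results below turn on the contrast between the subunits that replace each other in the core. Each window runs from 250 bases before to 50 after the RefSeq gene start of GRCm38.p6, 5′ to 3′ on the gene's strand, with a motif match in capitals where one was found. Psmb8 lies on the plus strand (chr17:34197945-34198244) and Psmb9 on the minus strand (chr17:34187281-34187580). Psmb10 lies on the minus strand (chr8:105938343-105938642), Psme1 on the plus strand (chr14:55578244-55578543) and Psmb5 on the minus strand (chr14:54617946-54618245).
Psmb8: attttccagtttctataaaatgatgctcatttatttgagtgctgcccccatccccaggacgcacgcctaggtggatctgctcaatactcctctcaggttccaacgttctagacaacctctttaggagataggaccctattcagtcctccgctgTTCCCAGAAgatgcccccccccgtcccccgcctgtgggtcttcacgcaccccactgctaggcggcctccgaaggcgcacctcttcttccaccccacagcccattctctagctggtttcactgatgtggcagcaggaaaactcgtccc
Psmb9: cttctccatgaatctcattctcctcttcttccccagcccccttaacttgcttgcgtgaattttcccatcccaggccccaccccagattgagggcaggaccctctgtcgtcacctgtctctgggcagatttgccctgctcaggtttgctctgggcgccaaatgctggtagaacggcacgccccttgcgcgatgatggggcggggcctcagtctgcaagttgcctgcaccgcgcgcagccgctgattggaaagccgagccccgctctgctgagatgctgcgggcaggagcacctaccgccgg
Psmb10: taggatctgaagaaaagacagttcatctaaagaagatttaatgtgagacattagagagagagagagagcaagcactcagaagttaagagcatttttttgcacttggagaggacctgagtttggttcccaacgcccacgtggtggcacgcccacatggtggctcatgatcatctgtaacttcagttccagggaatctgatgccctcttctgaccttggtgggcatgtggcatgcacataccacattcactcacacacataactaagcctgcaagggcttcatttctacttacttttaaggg
Psme1: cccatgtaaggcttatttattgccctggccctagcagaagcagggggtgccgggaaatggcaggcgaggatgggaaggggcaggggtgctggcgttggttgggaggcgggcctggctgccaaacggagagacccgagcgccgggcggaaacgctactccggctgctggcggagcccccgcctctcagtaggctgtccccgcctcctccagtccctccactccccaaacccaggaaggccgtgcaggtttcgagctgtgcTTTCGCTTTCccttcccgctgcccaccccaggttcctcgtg
Psmb5: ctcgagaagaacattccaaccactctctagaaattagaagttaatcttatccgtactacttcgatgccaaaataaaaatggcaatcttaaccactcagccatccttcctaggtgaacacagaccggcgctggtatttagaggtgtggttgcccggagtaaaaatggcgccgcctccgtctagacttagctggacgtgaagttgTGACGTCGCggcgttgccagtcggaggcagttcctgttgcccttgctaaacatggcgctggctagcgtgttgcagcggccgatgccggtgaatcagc
The capitals mark a GAS core (TTCNNNGAA, the type of site STAT factors bind) 97 bases before the start of Psmb8. They mark an ISRE core (GAAA, then NN, then GAAA again, bound by interferon regulatory factors) on the other strand, 9 bases after the start of Psme1. In Psmb5 they mark an ARE core (TGACNNNGC, the type of site bound by Nfe2l1 and Nfe2l2) 47 bases before the start. The windows of Psmb9 and Psmb10 held no match to these letters.

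Of the 46 genes, 39 had a RefSeq promoter in the table, with 42 windows in all, and both strands were searched. The ARE core stood in 6 of the 42 windows (14.3%) against 12.4% of 32851 windows of all genes. The ISRE core stood in 5 (11.9%) against 3.44%, and the GAS core in 3 (7.14%) against 8.30%. The 5 ISRE windows were those of Psme1, Psmb3, Psmd4, Psmd9 and Psmg4, with 1 of the 4 inducible windows among them. Matches of different motifs overlapped in 0 of the 42 windows. A match of letters is a description and not a bound site.

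The deposited values are average differences, in which mismatch probes are subtracted, so values below 0 occur. A probe set was tested where it was called present on at least 3 of the 33 arrays, which 46 of the 58 members and 6568 probe sets in all passed. The arrays fall into a set of 16 with 35.05% to 40.8% of values at or below 0 and a set of 17 with 24.2% to 28.2%. The split runs partly along the groups. Set 1 holds the fasted uninjected mice, vehicle mice at 0 and 6 h, nonfasted rapamycin mice, 1 rapamycin array at 3 h and 2 at 6 h, and set 2 holds the rest. Set 2 minus set 1, fitted as a term, had a median of 0.03 log2 units over the 46 members and 0.14 over all 6568 probe sets. Psmg1 (1.01) and Psmg2 (0.79) were the 2 members that passed for it. Below, comparisons that stay inside 1 set are named as such. Hepatocyte markers such as Alb and Apoa1 were present on all 33 arrays, and the 4 bile duct probe sets were at 0 or below on 32 or 33 of them.

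By role, the 46 tested probe sets were 7 of the alpha ring, 9 of the constitutive beta ring, 4 of the inducible genes (Psmb8, Psmb9, Psmb10 and Psme1), 7 of the cap ATPases and 11 of the cap non-ATPases. The rest were 2 of other activators (Psme3 and Psme4), 5 of assembly factors and inhibitors, and 1 of an interacting protein that shares the prefix, Psme3ip1. Psmd10, Psmg3, Psmc4, Psmd2 and Psmc3ip had no probe set that passed the filter. Single probe sets of Psmc5, Psmd11, Psmb1 and Psme1 and 2 of Psmb4 did not pass either, beside another of the same gene that did. Psme2 is represented only by probe sets that also name Psme2b and is therefore given no value. In the F-test over the 11 groups, 41 of the 46 members passed at an adjusted p of 0.05 (limma with Benjamini-Hochberg adjustment over 6568 probe sets), beside 61.4% of all probe sets.

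The clearest pattern among the members was a split between the inducible and the constitutive subunits in nonfasted against fasted livers. Psmb8, Psmb9, Psmb10 and Psme1 were all higher in nonfasted than in fasted livers, in both pairs of groups that allow the comparison. Core and cap subunits that passed were lower there, apart from Psmb6. In nonfasted vehicle mice against vehicle mice at 0 h, 6 members passed as higher and 13 as lower, beside 19.1% and 10.1% of all probe sets. That pair crosses the array sets, and its mice were killed 24 h and 2 h after the injection. Feeding state, array set and time since the injection cannot be told apart in it. In nonfasted rapamycin mice against fasted uninjected mice, a comparison inside set 1 in which drug and injection differ too, again 6 were higher and 13 lower, beside 12.8% and 10.9%. Over the 34 core and cap probe sets the median log2 difference was -0.35 in the vehicle pair, where all probe sets had 0.11. In the other pair it was -0.31, where all probe sets had 0.00. Over the 4 inducible probe sets, with values below 30 set to 30 so that the sizes are lower bounds, the medians were 1.82 in the vehicle pair and 1.34 in the other. At 12 h of refeeding over 0 h, the inducible medians with that floor were 1.33 with vehicle and 1.58 with rapamycin. The core and cap medians were 0.18 and -0.03 there, where all probe sets had 0.24 and -0.004.

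**Figure D1:**
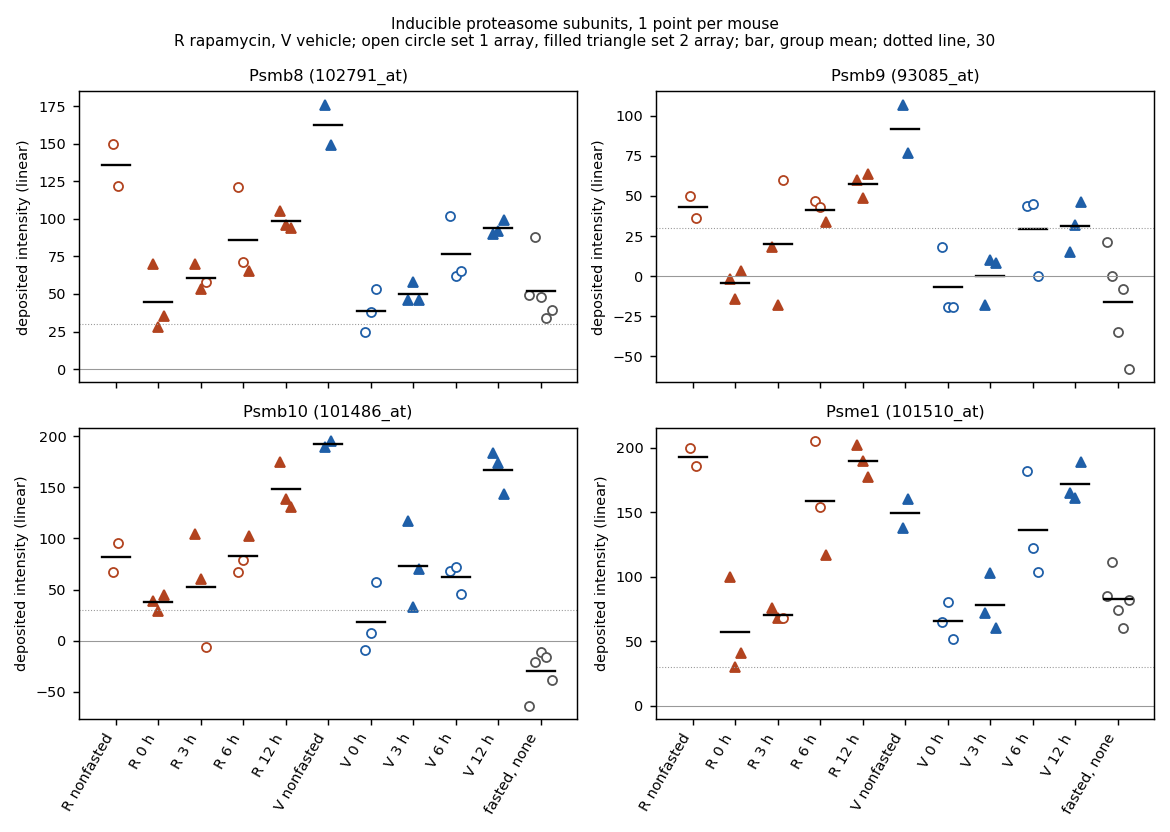
Deposited intensity (linear scale) of the 4 inducible probe sets, 1 point per mouse, with rapamycin groups (R) left of vehicle groups (V) and fasted uninjected mice at the right. Bars are group means, open circles set 1 arrays and filled triangles set 2 arrays. Both nonfasted groups lie above the 0 h groups in all 4 panels, and the 12 h groups lie above the 0 h groups of the same injection except for 1 array of Psmb9 in vehicle mice.

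Psmb8 is the inducible counterpart of Psmb5. It read 150 and 122 in nonfasted rapamycin mice and 176 and 149 in nonfasted vehicle mice, against 25, 38 and 53 in vehicle mice at 0 h and 49.3, 88, 48, 34 and 39 in fasted uninjected mice. Along refeeding, vehicle mice read 25, 38 and 53 at 0 h, 46, 58 and 46 at 3 h, 102, 62 and 65 at 6 h and 90, 92 and 99 at 12 h. Rapamycin mice read 70, 28 and 35 at 0 h, 70, 53 and 58 at 3 h, 121, 71 and 65 at 6 h and 105, 96 and 94 at 12 h. Nonfasted mice did not overlap fasted mice, and at 12 h both injections lay above their 0 h mice. The log2 difference was 2.13 ± 0.36 (SE) for nonfasted vehicle over vehicle at 0 h (adjusted p = 0.000114) and 1.47 ± 0.33 for nonfasted rapamycin over fasted uninjected mice (adjusted p = 0.00219). At 12 h over 0 h it was 1.26 ± 0.33 with rapamycin (adjusted p = 0.00616) and 1.34 ± 0.33 with vehicle (adjusted p = 0.00255). Without rapamycin array 2 at 0 h, the rapamycin value was 0.99 with an adjusted p of 0.0541.

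Psmb9, the counterpart of Psmb6, was near the lower limit of the array in fasted mice. It read 50 and 36 in nonfasted rapamycin mice and 107 and 77 in nonfasted vehicle mice, against 18, -19 and -19 in vehicle mice at 0 h and 21.4, 0, -35, -8 and -58 in fasted uninjected mice. Rapamycin mice read -2, -14 and 3 at 0 h, 18, -18 and 60 at 3 h, 47, 43 and 34 at 6 h and 60, 49 and 64 at 12 h. Vehicle mice at 3, 6 and 12 h read -18, 10 and 8, then 44, 45 and 0, then 15, 32 and 46. Nonfasted mice and rapamycin mice at 6 and 12 h lay above every fasted mouse, whereas vehicle mice at 12 h overlapped those at 0 h. Since every fasted array was below 30, the floor in the header of the authors' table, the size is given as a bound against 30. Psmb9 was at least 3.03-fold higher in nonfasted vehicle mice than in vehicle mice at 0 h (adjusted p = 0.00194) and at least 1.41-fold higher in nonfasted rapamycin than in fasted uninjected mice (adjusted p = 0.0146). It was at least 1.91-fold higher in rapamycin mice at 12 h than at 0 h (adjusted p = 0.00142), and the vehicle mice at 12 h did not pass against those at 0 h (adjusted p = 0.0636). With a floor of 30, the pair of nonfasted rapamycin and fasted uninjected mice no longer passed (0.50, adjusted p = 0.117), and it did not pass without either rapamycin array (adjusted p = 0.116 without array 1 and 0.0721 without array 2).

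Psmb10, the counterpart of Psmb7, was not above 30 in most fasted mice outside the rapamycin group. It read 67 and 96 in nonfasted rapamycin mice and 189 and 195 in nonfasted vehicle mice, against -9, 8 and 57 in vehicle mice at 0 h and -63.5, -21, -11, -16 and -38 in fasted uninjected mice. Vehicle mice read 117, 33 and 70 at 3 h, 68, 72 and 46 at 6 h and 184, 174 and 143 at 12 h. Rapamycin mice read 39, 29 and 45 at 0 h, 104, 60 and -6 at 3 h, 67, 79 and 102 at 6 h and 175, 139 and 131 at 12 h. All 5 fasted uninjected values were below 0, and nonfasted and 12 h mice did not overlap fasted ones. Psmb10 was at least 2.67-fold higher in nonfasted rapamycin than in fasted uninjected mice (adjusted p = 0.000616) and at least 2.03-fold higher in vehicle mice at 6 h than in fasted uninjected mice (adjusted p = 0.000434), both inside set 1. Of the vehicle values at 0 h, 2 of 3 were not above 30 either, so these sizes are also bounds with 30 as the floor. Psmb10 was at least 5.17-fold higher in nonfasted vehicle mice than in vehicle mice at 0 h (adjusted p = 0.000984) and at least 4.47-fold higher in vehicle mice at 12 h than at 0 h (adjusted p = 0.000426). Both pairs cross the array sets, and with array set added to the model neither passed (adjusted p = 0.231 and 0.284). The set term for Psmb10 was 2.07 log2 units (limma adjusted p = 0.0568). It was estimated from the rapamycin mice at 3 and 6 h alone, where the set 1 array at 3 h read -6. In rapamycin mice, inside set 2, the 12 h difference was 1.99 ± 0.71 (adjusted p = 0.0419), and leaving out any of its 6 arrays took that adjusted p to 0.0642 or above. With a floor of 30 and all arrays kept, the difference was 1.97 (limma adjusted p = 0.00048).

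Psme1 encodes a subunit of the interferon-inducible cap. It read 200 and 186 in nonfasted rapamycin mice and 138 and 160 in nonfasted vehicle mice, against 65, 80 and 52 in vehicle mice at 0 h and 85.2, 111, 74, 60 and 82 in fasted uninjected mice. Rapamycin mice read 100, 30 and 41 at 0 h, 76, 68 and 68 at 3 h, 205, 154 and 117 at 6 h and 202, 190 and 177 at 12 h. Vehicle mice at 3, 6 and 12 h read 72, 103 and 60, then 182, 122 and 104, then 165, 161 and 189. With both injections the levels at 3 h overlapped those at 0 h, and those at 6 and 12 h did not. At 12 h over 0 h the log2 difference was 1.93 ± 0.31 with rapamycin (adjusted p = 7.47e-05) and 1.40 ± 0.31 with vehicle (adjusted p = 0.0011). The rapamycin pair lies inside set 2. Nonfasted over fasted livers differed by 1.26 ± 0.32 in the rapamycin and uninjected pair (adjusted p = 0.0054) and by 1.20 ± 0.35 in the vehicle pair (adjusted p = 0.011). The first had an adjusted p of 0.0511 without nonfasted rapamycin array 1, and the second 0.0956 without nonfasted vehicle array 2.

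Other genes of antigen presentation and the interferon response were read beside these subunits. That list has 43 genes, of which 27 were tested with 33 probe sets, the 4 inducible members included. In nonfasted vehicle mice against vehicle mice at 0 h, 17 of the 33 probe sets were higher and 0 lower, beside 19.1% and 10.1% of all probe sets, with a median log2 difference of 1.22. Igtp, an interferon-induced GTPase, averaged 120 ± 8.49 in nonfasted vehicle mice and 33.7 ± 6.03 in vehicle mice at 0 h (SD, n = 2 and 3, log2 difference 1.85 ± 0.22 SE, limma adjusted p = 1.08e-06). Tap1, a subunit of the transporter that feeds peptides to MHC class I molecules, averaged 107 ± 12.7 in nonfasted vehicle mice and 48.7 ± 16.5 in vehicle mice at 0 h (log2 difference 1.18 ± 0.22, limma adjusted p = 0.000313). In nonfasted rapamycin mice against fasted uninjected mice, 7 of the 33 were higher and 1 lower, beside 12.8% and 10.9% of all probe sets, and 4 of the 7 were the inducible proteasome genes. There Tap1 averaged 86 ± 24.0 in nonfasted rapamycin mice and 85.7 ± 19.4 in fasted uninjected mice (log2 difference 0.01, adjusted p = 1). At 12 h over 0 h, 5 of the 33 were higher and 1 lower with rapamycin (15.2% and 3.03%, beside 14.6% and 10.4% of all probe sets), again with the 4 inducible proteasome genes among the 5. With vehicle 10 were higher and 3 lower (30.3% and 9.09%, beside 26% and 9.30%), so the shares of higher probe sets were near the background in both arms. B2m, the light chain of MHC class I, fell in vehicle mice by 0.32 log2 units (adjusted p = 0.0119), and so did 1 of 2 probe sets of H2-K1 (by 0.81, adjusted p = 0.0297) and 1 of 3 of H2-D1 (by 0.71, adjusted p = 0.00385), genes of MHC class I heavy chains.

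In whole liver, a change in RNA per cell cannot be told apart from a change in the share of cells of a type, and macrophages are rich in the inducible subunits. Of 16 tested probe sets of Kupffer cell and macrophage genes, 7 were higher and 1 lower in nonfasted vehicle mice than in vehicle mice at 0 h. The shares of all probe sets there were 19.1% and 10.1%. In nonfasted rapamycin against fasted uninjected mice 2 of the 16 were higher and 2 lower, beside 12.8% and 10.9%. The summed level of the 21 probe sets of that list was 2117 to 2323 in nonfasted rapamycin mice and 1850 to 2456 in nonfasted vehicle mice, against 1343 to 1486 in vehicle mice at 0 h and 1366 to 2827 in fasted uninjected mice. During refeeding it was 1298 to 1643 at 0 h, 1394 to 1527 at 3 h, 1421 to 1881 at 6 h and 1215 to 1733 at 12 h with rapamycin. With vehicle it was 1229 to 1595 at 3 h, 1433 to 1633 at 6 h and 1262 to 1305 at 12 h. At 12 h the sum thus lay below the 0 h range with vehicle and overlapped it with rapamycin. Csf1r, the macrophage growth factor receptor, averaged 159 ± 15.6 in nonfasted vehicle mice and 61.3 ± 44.3 in vehicle mice at 0 h (SD, n = 2 and 3). A probe set of Adgre1 was at 0 or below on 27 of the 33 arrays, and none of the T and NK cell probe sets passed the filter. Of 2 tested B cell probe sets, 1 was lower and 0 higher in both nonfasted pairs and in both arms at 12 h over 0 h. The shares of all probe sets lower there were 9.30% to 10.9%. The summed B cell level was 172 to 291 in nonfasted vehicle mice and 572 to 607 in vehicle mice at 0 h. The only tested stellate probe set, of Col3a1 (mean of 28.0 over the 33 arrays), was higher in these pairs. The summed level of 7 endothelial probe sets was also higher in the pairs in which the inducible genes were higher. It was 425 to 493 at 12 h and 268 to 293 at 0 h with rapamycin, and 464 to 480 at 12 h and 228 to 265 at 0 h with vehicle. In nonfasted mice it was 388 to 531 with rapamycin and 486 to 588 with vehicle, against 316 to 361 in fasted uninjected mice. None of these ranges overlapped within a pair. Eng made up the largest part of this sum, with a mean of 253 over the 33 arrays, where the next highest, Kdr, had 43.5. Of the 5 tested endothelial probe sets, 1 was higher in each arm at 12 h over 0 h. In the nonfasted vehicle pair 2 were higher and in the other pair 1, with 0 lower in all 4 pairs. Eng, an endothelial co-receptor of the TGF-beta family, was higher in all 4. The shares of all probe sets higher were 14.6% with rapamycin and 26% with vehicle at 12 h. They were 19.1% in the nonfasted vehicle pair and 12.8% in the other. Over the 5, the median log2 differences at 12 h were 0.14 with rapamycin and 0.04 with vehicle. They were 0.90 in the nonfasted vehicle pair and 0.34 in the other. The summed level of 9 hepatocyte probe sets moved the other way. It was 19759 to 23739 at 12 h and 29112 to 33630 at 0 h with rapamycin, and 21281 to 22726 at 12 h and 29370 to 32927 at 0 h with vehicle. In nonfasted mice it was 21465 to 22770 with rapamycin and 24149 to 24570 with vehicle, against 28145 to 33406 in fasted uninjected mice. Of the 9, 6 were lower with rapamycin and 7 with vehicle at 12 h over 0 h, with 1 higher in each. The shares of all probe sets lower there were 10.4% and 9.30%, and those higher were 14.6% and 26%. Beside Alb (mean of 6598 over the 33 arrays) and Apoa1 (5984), this sum holds the enzymes Cps1 (4552), Tat (2181) and Tdo2 (2734 and 855). Whether this sum follows the share of hepatocytes or the level of these genes in each hepatocyte was not tested. The part of these cell types in the differences of the inducible genes was not tested.

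Turning to the constitutive core, the catalytic subunits replaced in immunoproteasomes did not move as 1 group. Psmb6 was higher at 12 h of refeeding than at 0 h with both injections. It read 50 and 115 in nonfasted rapamycin mice and 204 and 168 in nonfasted vehicle mice, against 76, 83 and 69 in vehicle mice at 0 h and -9.2, 31, 21, 57 and 37 in fasted uninjected mice. Vehicle mice read 157, 144 and 113 at 3 h, 211, 168 and 149 at 6 h and 194, 272 and 260 at 12 h. Rapamycin mice averaged 70.3 ± 30.02 (SD, n = 3) at 0 h and read 179, 131 and 125 at 3 h, 159, 149 and 189 at 6 h and 224, 239 and 203 at 12 h. From 3 h on, every refed mouse of both injections lay above its 0 h mice. The 12 h over 0 h log2 difference was 1.75 ± 0.48 with rapamycin (adjusted p = 0.00909) and 1.66 ± 0.48 with vehicle (adjusted p = 0.00922), and the vehicle value was 1.36 with array set in the model (adjusted p = 0.216). Without rapamycin array 2 at 0 h the rapamycin value was 1.41 (adjusted p = 0.0676). In vehicle mice the differences at 3 h (0.85, adjusted p = 0.212) and, inside set 1, at 6 h (1.20 ± 0.48, adjusted p = 0.0786) did not pass. Inside set 1, vehicle mice at 6 h exceeded fasted uninjected mice by 2.83 ± 0.43 (adjusted p = 2.62e-05), of which vehicle mice at 0 h, before any food, already held 1.63 ± 0.43 (adjusted p = 0.0282). Nonfasted rapamycin mice exceeded them by 1.64 ± 0.49 (adjusted p = 0.0175), but the groups overlapped and the adjusted p was 0.338 without nonfasted rapamycin array 2.

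Psmb5 has 2 tested probe sets that disagree, called here by the endings of their names, _s_at and _at. The _s_at probe set read 173 and 200 in nonfasted rapamycin mice and 198 and 180 in nonfasted vehicle mice, against 391, 328 and 309 in vehicle mice at 0 h and 201.3, 216, 242, 192 and 260 in fasted uninjected mice. At 3, 6 and 12 h it read 331, 341 and 318, then 297, 282 and 304, then 416, 314 and 373 with vehicle. With rapamycin it read 269, 242 and 267 at 0 h, 368, 347 and 330 at 3 h, 334, 281 and 350 at 6 h and 321, 335 and 231 at 12 h. Nonfasted vehicle mice lay below every vehicle mouse of the refeeding series, while nonfasted rapamycin mice met the range of fasted uninjected mice. The nonfasted vehicle over vehicle 0 h difference was -0.85 ± 0.16 (adjusted p = 0.00024) for this probe set and -0.64 ± 0.23 (adjusted p = 0.0378) for the _at probe set. In vehicle mice at 6 h against fasted uninjected mice the first was higher by 0.41 ± 0.12 (adjusted p = 0.015), and the second was lower by 0.65 on the log2 scale (adjusted p = 0.0102). No direction is therefore given for Psmb5 in that pair. Psmb7 averaged 227 ± 18.4 in nonfasted rapamycin, 290.5 ± 31.8 in nonfasted vehicle, 332 ± 24.7 in vehicle 0 h and 276 ± 11.6 in fasted uninjected mice (SD), and passed in none of the comparisons made here (limma adjusted p of 0.0775 or above).

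**Figure D2:**
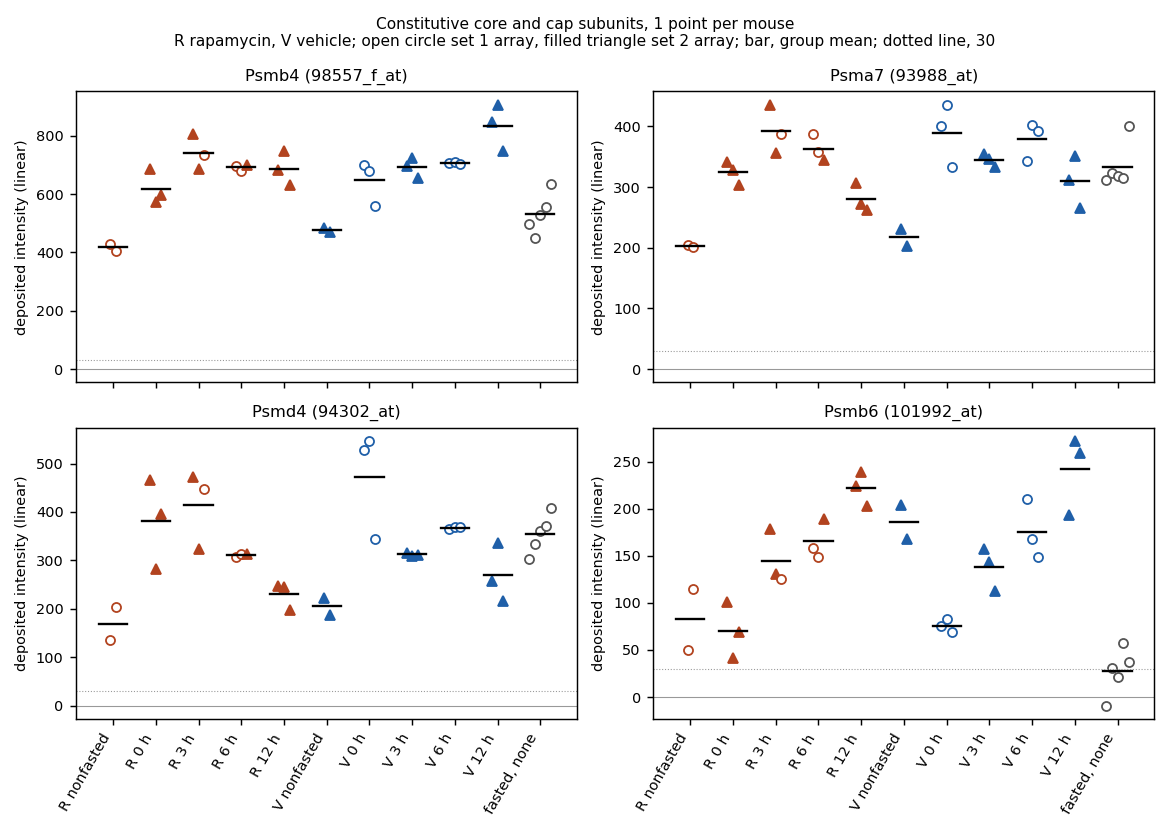
Deposited intensity (linear scale) of 4 constitutive subunits, 1 point per mouse, groups and symbols as for the inducible genes. Psmb4, Psma7 and Psmd4 were lowest or near lowest in the nonfasted groups, and Psmb6 was higher at 12 h than at 0 h with both injections.

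Psmb4 and Psma7 represent the rest of the core. Psmb4, a structural beta subunit, read 428 and 406 in nonfasted rapamycin mice and 483 and 469 in nonfasted vehicle mice, against 701, 680 and 560 in vehicle mice at 0 h and 498.8, 451, 527, 556 and 634 in fasted uninjected mice. At 3, 6 and 12 h it read 697, 723 and 657, then 706, 711 and 702, then 847, 907 and 747 with vehicle. With rapamycin it read 686, 573 and 597 at 0 h, 805, 685 and 735 at 3 h, 696, 681 and 700 at 6 h and 683, 748 and 632 at 12 h. The nonfasted mice were below all mice of the pair they are set against, and the 12 h vehicle mice were above all 0 h mice. Nonfasted mice were lower by 0.44 in the vehicle pair (log2 -0.44 ± 0.13, adjusted p = 0.0121) and by 0.35 in the other (log2 -0.35 ± 0.12, adjusted p = 0.0336). The first had adjusted p of 0.0870 with array set in the model and 0.0515 without vehicle array 1 at 0 h. The second did not pass without fasted uninjected array 4 or 5 or without either rapamycin array (adjusted p = 0.0577, 0.0763, 0.0924 and 0.235). Vehicle mice at 12 h exceeded those at 0 h by 0.37 ± 0.11 (adjusted p = 0.0145), a value of 0.06 when all arrays are scaled to 1 trimmed mean (adjusted p = 0.730).

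Psma7, an alpha ring subunit, read 205 and 201 in nonfasted rapamycin mice and 231 and 203 in nonfasted vehicle mice, against 400, 436 and 334 in vehicle mice at 0 h and 311.3, 324, 318, 315 and 400 in fasted uninjected mice. At 3, 6 and 12 h it read 354, 347 and 333, then 343, 403 and 393, then 311, 352 and 266 with vehicle. With rapamycin it read 341, 329 and 303 at 0 h, 436, 357 and 387 at 3 h, 387, 358 and 345 at 6 h and 306, 272 and 263 at 12 h. All 4 nonfasted mice were below every other mouse of the study for this gene. The log2 differences were -0.84 ± 0.14 in the vehicle pair (adjusted p = 5.75e-05) and -0.71 ± 0.12 in the rapamycin and uninjected pair (adjusted p = 0.000164). Of the 16 constitutive core probe sets, 6 were lower and 0 higher in the vehicle pair, beside 10.1% and 19.1% of all probe sets. In the rapamycin and uninjected pair, beside 10.9% and 12.8%, 5 were lower and 1, Psmb6, was higher. Psma6 (-0.90) in the first pair and Psma5 (-0.81) in the second had the largest fall in the alpha ring.

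In the cap, 6 of 18 probe sets (33.3%) were lower in nonfasted vehicle mice than in vehicle mice at 0 h, beside 10.1% of all probe sets, and 7 of 18 (38.9%) were lower in nonfasted rapamycin than in fasted uninjected mice, beside 10.9%, with 0 higher in both. Psmd4, a ubiquitin receptor of the cap, read 136 and 203 in nonfasted rapamycin mice and 223 and 187 in nonfasted vehicle mice, against 528, 546 and 345 in vehicle mice at 0 h and 303.4, 333, 360, 370 and 409 in fasted uninjected mice. Along refeeding it read 316, 310 and 311 at 3 h, 365, 368 and 368 at 6 h and 257, 336 and 217 at 12 h with vehicle. With rapamycin it read 466, 283 and 395 at 0 h, 473, 323 and 447 at 3 h, 307, 313 and 313 at 6 h and 247, 244 and 198 at 12 h. Both nonfasted groups and both 12 h groups lay below the 0 h mice of their injection. The nonfasted differences were -1.18 ± 0.22 in the vehicle pair (adjusted p = 0.000305) and -1.09 ± 0.20 in the rapamycin and uninjected pair (adjusted p = 0.000347). At 12 h over 0 h the log2 difference was -0.71 ± 0.20 with rapamycin (adjusted p = 0.0105) and -0.80 ± 0.20 with vehicle (adjusted p = 0.00298). With array set in the model the vehicle value was -0.71 (adjusted p = 0.108). The rapamycin value was -0.55 without rapamycin array 1 at 0 h (adjusted p = 0.0654) and -0.61 without array 3 at 12 h (adjusted p = 0.0562).

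Psmd6, a structural subunit of the cap, read 170 and 206 in nonfasted rapamycin mice and 234 and 185 in nonfasted vehicle mice, against 354, 355 and 298 in vehicle mice at 0 h and 281.4, 317, 352, 276 and 340 in fasted uninjected mice. In refed vehicle mice it read 400, 385 and 313 at 3 h, 322, 281 and 343 at 6 h and 303, 331 and 294 at 12 h. In rapamycin mice it read 386, 343 and 374 at 0 h, 404, 384 and 335 at 3 h, 266, 256 and 341 at 6 h and 251, 264 and 254 at 12 h. Nonfasted mice were again below all fasted mice, and among refed mice those with rapamycin at 6 and 12 h were below their 0 h mice. The log2 difference was -0.69 ± 0.15 in the nonfasted vehicle pair (adjusted p = 0.00139) and -0.74 ± 0.14 in the other nonfasted pair (adjusted p = 0.000353). Rapamycin mice at 12 h over 0 h had -0.52 ± 0.13 (adjusted p = 0.00646), and vehicle mice had -0.11 ± 0.13 (adjusted p = 0.545). The refeeding by drug interaction did not pass for Psmd6 (adjusted p = 0.587).

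Psmc3, a cap ATPase, has 3 tested probe sets, of which the one ending in _i_at read 63 and 80 in nonfasted rapamycin mice and 83 and 77 in nonfasted vehicle mice, against 128, 72 and 102 in vehicle mice at 0 h and 67.8, 55, 86, 64 and 73 in fasted uninjected mice. Vehicle mice read 113, 97 and 91 at 3 h, 117, 104 and 117 at 6 h and 133, 155 and 133 at 12 h. Rapamycin mice read 88, 88 and 77 at 0 h, 113, 109 and 108 at 3 h, 119, 113 and 118 at 6 h and 121, 140 and 111 at 12 h. In both arms the 12 h mice were above all 0 h mice, while nonfasted mice overlapped the fasted ones. At 12 h over 0 h the log2 difference was 0.55 ± 0.16 with rapamycin (adjusted p = 0.015) and 0.51 ± 0.16 with vehicle (adjusted p = 0.0165). Of its 2 probe sets ending in _f_at, 1 passed with vehicle (0.43, adjusted p = 0.00903) and not with rapamycin, and the other passed in neither. When all arrays are scaled to 1 trimmed mean, the vehicle value was 0.21 for the _i_at probe set (adjusted p = 0.293) and 0.13 for the _f_at one (adjusted p = 0.421), and with array set in the model neither passed (adjusted p = 0.196 and 0.175).

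**Figure D3:**
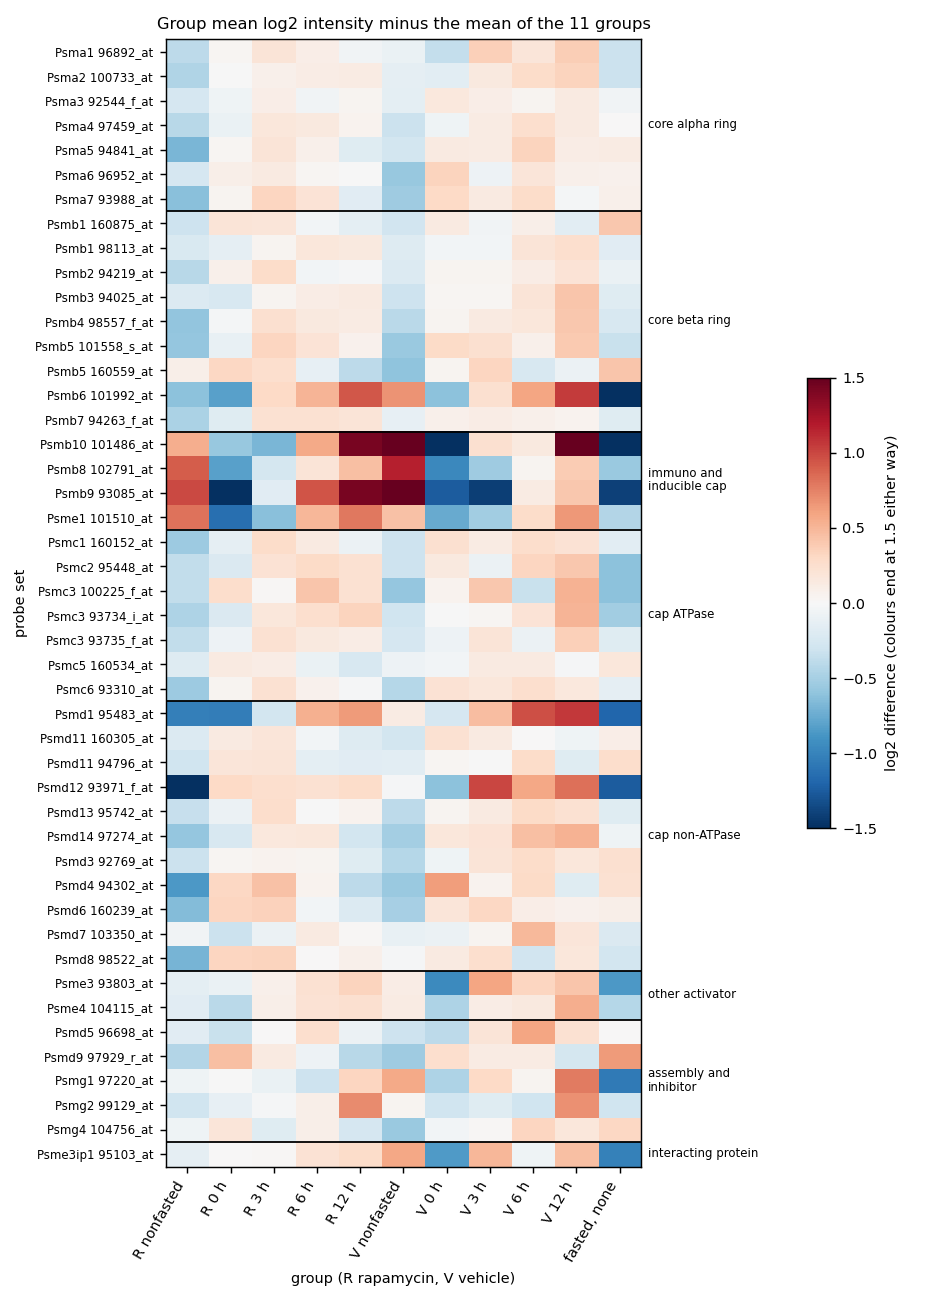
Group mean of log2 intensity minus the mean of the 11 group means for each of the 46 tested probe sets, ordered by role, with colours ending at 1.5 log2 units either way. The columns run from rapamycin groups to vehicle groups and fasted uninjected mice. Inducible rows are red in both nonfasted and both 12 h columns, where most core and cap rows are blue in the nonfasted columns.

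Core and cap genes were lower in nonfasted vehicle mice than in vehicle mice at 12 h of refeeding. Both groups had eaten, and both lie in set 2. The nonfasted mice were killed 24 h after the injection and the refed mice after 2 h and then 12 h of food, so feeding history and time since the injection cannot be told apart. This pair was added after the data had been examined. In nonfasted over 12 h refed vehicle mice, 0 of the 46 members were higher and 15 were lower, beside 1.93% and 4.07% of all probe sets. These 15 probe sets were 8 of 16 core and 7 of 18 cap probe sets. Of the 34 core and cap probe sets, 33 had a negative log2 difference, with a median of -0.51 against -0.11 over all 6568 probe sets. Psmd14, the deubiquitinase of the cap, had -1.03 ± 0.18 (adjusted p = 0.0012), Psmb5 (_s_at) -0.95 ± 0.16 (adjusted p = 0.000548), Psmc3 (_i_at) -0.81 ± 0.18 (adjusted p = 0.00782), Psmb4 -0.80 ± 0.13 (adjusted p = 0.000384) and Psmb3 -0.73 (adjusted p = 0.0012). None of the 4 inducible probe sets passed, with differences of 0.79 for Psmb8, 0.21 for Psmb10 and -0.20 for Psme1 (adjusted p = 0.216 or above). With a floor of 30, Psmb9 passed as higher in nonfasted mice (1.36, adjusted p = 0.00066). The count rested on few mice. It was 7 without nonfasted vehicle array 1, 4 without array 2, 8 without vehicle array 1 at 12 h, 9 after scaling to 1 trimmed mean, and 0 when only these 5 arrays were fitted, where limma gave 28 of 46 an unadjusted p under 0.05.

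**Figure D4:**
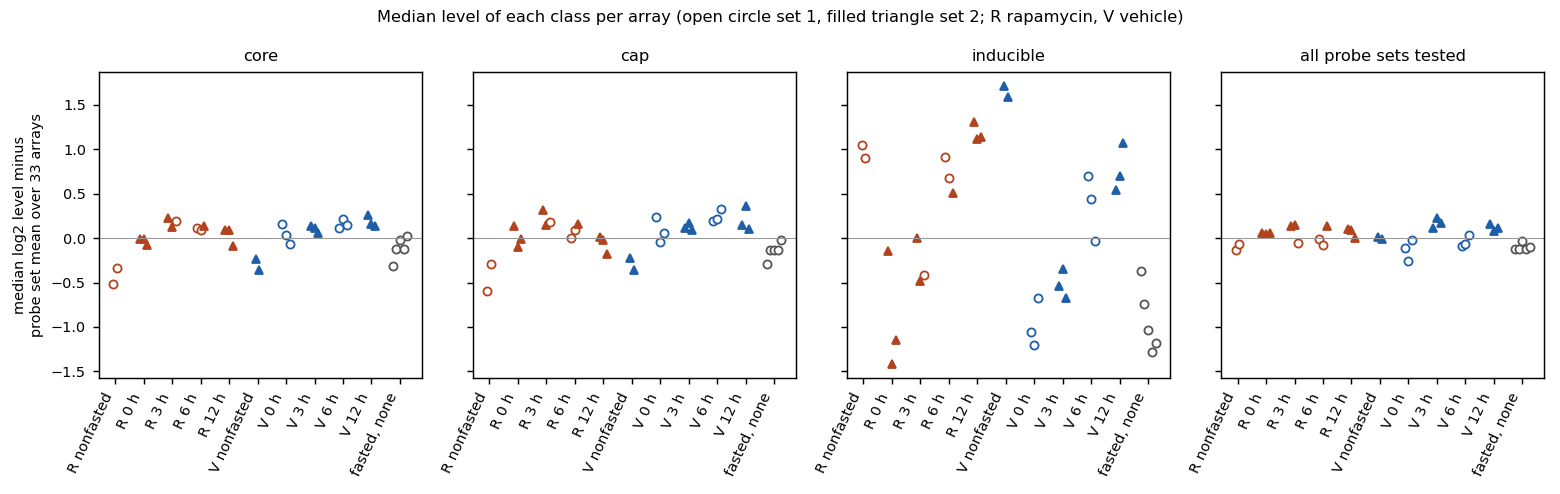
Median over the probe sets of a class of log2 level minus each probe set's mean over the 33 arrays, 1 point per array, for core, cap and inducible members and for all 6568 tested probe sets. The 4 nonfasted mice and fasted uninjected array 1 had the 5 lowest core medians and the 5 lowest cap medians of the 33 arrays.

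Over the refeeding series, the share of members that passed as higher was below that of all probe sets at 3 h and above it at 6 and 12 h in vehicle mice. At 3 h against 0 h, 5 of the 46 members were higher and 2 lower (10.9% and 4.35%), beside 19.9% and 2.54% of all probe sets. At 6 h against 0 h, inside set 1, 11 were higher (23.9%) and 0 lower, beside 14.2% and 6.90%. At 12 h against 0 h, 17 were higher and 4 lower (37% and 8.7%), beside 26% and 9.30%. The 34 core and cap probe sets alone were near the shares of all probe sets at 6 and 12 h. Of these, 5.88% were higher and 5.88% lower at 3 h, 14.7% and 0% at 6 h, and 26.5% and 8.82% at 12 h. At 12 h, 3 of the 4 inducible and 5 of the 8 remaining probe sets were higher. No test was made of these shares against each other. All probe sets shifted by a median of 0.27 log2 units at 3 h and 0.24 at 12 h in these cross-set pairs, where the members had 0.11 and 0.26. Scaling to 1 trimmed mean changed the splits to 2 higher and 5 lower at 3 h, 5 and 1 at 6 h and 10 and 9 at 12 h. With array set in the model, 0 members passed at 3 h (limma, 5 with an unadjusted p under 0.05) and 5, all higher, at 12 h.

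Single arrays also moved the early counts. At 3 h the count was 3 without vehicle array 2 at 0 h, 11 without vehicle array 3 at 0 h, 3 without array 1 at 3 h, and 4 without array 2 or array 3 at 3 h. At 6 h it was 7, 5, 3 and 5 without vehicle array 1 or 2 at 0 h or array 1 or 2 at 6 h. Inside set 1, vehicle mice at 6 h were also set against the 5 fasted uninjected mice, a pair that differs by the injection as well as by food. There 20 members were higher and 2 lower (43.5% and 4.35%), beside 18.0% and 11.6% of all probe sets (29.6% in either direction). Of the 34 core and cap probe sets, 15 were higher and 1, the _at probe set of Psmb5, was lower, with a median log2 difference of 0.27. Vehicle mice at 0 h over fasted uninjected mice had a core and cap median of 0.22 before any food. In vehicle mice at 6 h over 0 h, with the injection shared, the median was 0.15. There 5 of the 34 were higher and 0 lower (14.7% and 0%), beside 14.2% and 6.90% of all probe sets. Psmd12, a cap scaffold subunit with levels near the lower limit of the array, passed in vehicle mice at 6 h over fasted uninjected mice (28.0 ± 2.00 against 3.26 ± 8.09, SD). Psma2 (0.61, adjusted p = 0.000287), Psmc2 (0.94, adjusted p = 0.00301), Psmd7 (0.71, adjusted p = 0.00194) and Psmd1 (2.15, adjusted p = 0.0111) were also higher at 6 h than in fasted uninjected mice. Against vehicle mice at 0 h, the 6 h mice passed for Psma2 (0.44, adjusted p = 0.015) and Psmd7 (0.58, adjusted p = 0.0248) and not for Psmc2 (0.17, adjusted p = 0.723) or Psmd1 (1.22, adjusted p = 0.241). With 1 trimmed mean, Psma2 (0.30, adjusted p = 0.0922) and Psmd7 (0.44, adjusted p = 0.106) did not pass there either. Psmc2, a cap ATPase, averaged 243 ± 23.2 in vehicle mice at 6 h, 228 ± 87.6 in vehicle mice at 0 h and 128 ± 15.7 in fasted uninjected mice (SD). Psmd1 is the large scaffold of the cap, and its fasted uninjected values include 1 of -68.2.

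Between 3 and 12 h of refeeding in vehicle mice, inside set 2, 3 members were higher and 0 lower, beside 5.80% and 5.16%. They were Psme1 (1.17 ± 0.31, adjusted p = 0.0163), Psmb3 (0.39, adjusted p = 0.0329) and Psmg2, whose values lie near the floor. Psmb3 did not pass with quantile normalization (0.28, adjusted p = 0.0962) or 1 trimmed mean (0.37, adjusted p = 0.0567), nor did its rapamycin value at 12 h below (0.27, adjusted p = 0.0757, and 0.30, adjusted p = 0.0781). The count was 1 without any 1 of the 3 vehicle arrays at 3 h or without array 2 at 12 h. With rapamycin, 0 members passed at 3 h against 0 h (limma), beside 2.79% of all probe sets (1.58% higher and 1.20% lower). There 14 members had an unadjusted limma p under 0.05, and 37 of 46 differences were above 0 (80.4%), beside 49.7% of all probe sets. At 6 h, 8 were higher and 1 lower, beside 10.7% and 10.1%. At 12 h, inside set 2, 10 were higher and 6 lower, beside 14.6% and 10.4%. The 10 were the 4 inducible genes, Psmb6, Psmb3 (0.37), 1 of 2 Psmb1 probe sets (0.28), Psmc3 (_i_at), Psme4 (0.65) and Psmg2. The 6 were Psmd9, Psmd4, Psmd6, Psmb5 (_at, -0.71), Psmc5 (-0.37) and 1 of 2 Psmd11 probe sets (-0.33). With quantile normalization the splits were 7 higher and 3 lower at 6 h and 7 and 7 at 12 h. The 6 h count was 2 with array set in the model, 2 or 3 without rapamycin array 2 or 3 at 0 h, and 3 without rapamycin array 1 or 2 at 6 h. The 12 h count was 7, 9 and 10 without rapamycin array 2 at 0 h, array 2 at 12 h and array 3 at 12 h.

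The activators outside the main cap also differed between feeding states. Psme3 forms a nuclear activator that is not induced by interferon. It read 42 and 69 in nonfasted rapamycin mice and 65 and 64 in nonfasted vehicle mice, against 43, 17 and 40 in vehicle mice at 0 h and 43.6, 26, 26, 38 and 34 in fasted uninjected mice. Vehicle mice read 90, 99 and 81 at 3 h, 61, 70 and 96 at 6 h and 79, 80 and 79 at 12 h, and rapamycin mice read 66, 48 and 54 at 0 h, 61, 86 and 47 at 3 h, 45, 78 and 97 at 6 h and 75, 106 and 54 at 12 h. Refed vehicle mice were above all vehicle mice at 0 h from 3 h on, whereas the rapamycin groups overlapped. With vehicle, the log2 difference over 0 h was 1.54 ± 0.33 at 3 h (adjusted p = 0.00159), 1.27 ± 0.33 at 6 h (adjusted p = 0.00629) and 1.36 ± 0.33 at 12 h (adjusted p = 0.00223). The pairs at 3 and 12 h cross the array sets and did not pass with array set in the model (0.87 with adjusted p = 0.355, and 0.70 with adjusted p = 0.331). With rapamycin the 12 h difference was 0.44 ± 0.33 (adjusted p = 0.345). Psme4, a large single-chain activator, averaged 141 ± 8.39 at 12 h and 91.3 ± 20.6 at 0 h with rapamycin and 174 ± 16.3 and 89.3 ± 24.8 with vehicle (SD, n = 3 each), and passed in both arms (0.65, adjusted p = 0.0266, and 1.00, adjusted p = 0.000747).

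Assembly factors split between falls and rises. Psmd9, a chaperone that helps to build the ATPase ring and leaves the finished particle, had the smallest F-test p of all members. It read 163 and 125 in nonfasted rapamycin mice and 131 and 135 in nonfasted vehicle mice, against 248, 181 and 272 in vehicle mice at 0 h and 301.9, 287, 308, 300 and 307 in fasted uninjected mice. Vehicle mice read 213, 195 and 225 at 3 h, 191, 191 and 254 at 6 h and 206, 141 and 142 at 12 h. Rapamycin mice read 220, 292 and 287 at 0 h, 204, 226 and 204 at 3 h, 198, 170 and 182 at 6 h and 149, 140 and 143 at 12 h. Nonfasted mice were below all fasted ones, and with rapamycin the 6 and 12 h mice were below the 0 h mice. The log2 differences were -1.07 ± 0.16 for nonfasted rapamycin over fasted uninjected mice (adjusted p = 2.4e-05), -0.79 ± 0.17 for the nonfasted vehicle pair (adjusted p = 0.0014), -0.88 ± 0.16 for rapamycin at 12 h over 0 h (adjusted p = 0.000241) and -0.52 ± 0.16 for vehicle at 12 h over 0 h (adjusted p = 0.0115). Psmd5, a chaperone of the same assembly step, rose in vehicle mice at 3 h (0.59), 6 h (0.98) and 12 h (0.62), with adjusted p of 0.0319, 0.000631 and 0.0152. The 3 h value was 0.39 with quantile normalization (adjusted p = 0.139), 0.31 with 1 trimmed mean (adjusted p = 0.293) and 0.80 with array set in the model (adjusted p = 0.146), and the 12 h value was 0.32 with 1 trimmed mean (adjusted p = 0.217). The 6 h pair lies inside set 1 and kept its call under these settings. Psmg1, which starts the alpha ring, rose in both nonfasted pairs (1.00 with adjusted p = 0.0335 and 1.03 with adjusted p = 0.0365), but it was also among the members that differed between the array sets. The vehicle pair, which crosses them, had 0.02 with array set in the model (adjusted p = 0.992), and the other pair had 0.70 with a floor of 30 and did not pass.

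Partners of the proteasome outside the symbol rule were tested with 18 probe sets of 13 genes. At 12 h over 0 h, 3 were higher and 1 lower with rapamycin (16.7% and 5.56%), beside 14.6% and 10.4% of all probe sets. With vehicle 6 were higher and 1 lower (33.3% and 5.56%), beside 26% and 9.30%. Pomp, the maturation factor of the core, averaged 354 ± 9.61 at 12 h and 215 ± 52.5 at 0 h with rapamycin, and 363 ± 36.5 and 251 ± 17.5 with vehicle (SD, n = 3 each), and passed in both arms (0.76, adjusted p = 0.00227, and 0.53, adjusted p = 0.019). Rad23b, a shuttle that carries ubiquitinated proteins to the cap, passed in both arms with both its probe sets. A probe set of Usp14, a deubiquitinase of the cap, was lower in vehicle mice at 12 h by 1.00 log2 units (adjusted p = 0.000243) but was called present on 6 arrays, and the other Usp14 probe set, present on 31, had 0.95 without passing (adjusted p = 0.199). The factors known to drive proteasome genes when proteolysis is blocked, Nfe2l1 and its relative Nfe2l2, passed in none of the nonfasted and 12 h pairs (adjusted p = 0.0650 or above). Of 23 ubiquitin and p97 probe sets, 2 were higher and 2 lower at 12 h over 0 h with rapamycin (8.7% each). With vehicle 6 were higher and 4 lower (26.1% and 17.4%). The shares of all probe sets were 14.6% and 10.4% with rapamycin and 26% and 9.30% with vehicle. Stub1, a chaperone-bound ubiquitin ligase, was among the higher ones in both arms (1.12, adjusted p = 0.00521, and 1.24, adjusted p = 0.00154).

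Rapamycin against vehicle was compared at matched feeding states. The pairs at 0 h and in nonfasted mice cross the array sets fully, so drug and array set cannot be told apart there. Those at 3 and 6 h cross them in part. Of the 46 members, 0 passed at 0 h, 0 at 3 h, 0 at 6 h and 0 in nonfasted mice by limma. The shares of all probe sets were 5.36% at 0 h (4.78% higher and 0.579% lower), 0.305% at 3 h (0.0152% and 0.289%), 0.0152% at 6 h (all higher), and 1.00% in nonfasted mice (0.0761% and 0.929%). At an unadjusted p under 0.05 there were 7, 0, 2 and 6 members. At 12 h, inside set 2, 1 member was lower and 0 higher, beside 0.198% and 0.122%. It was Psmd14, which read 142, 160 and 113 in rapamycin mice, against 225, 297 and 202 in vehicle mice at 12 h. Every rapamycin mouse lay below every vehicle mouse, and the log2 difference was -0.80 ± 0.17 (adjusted p = 0.0307). The call did not hold in 4 of the 6 fits that left out an array. The adjusted p was 0.0598 without vehicle array 1, 0.156 without vehicle array 2, 0.106 without rapamycin array 1 and 0.197 without rapamycin array 3, with log2 differences of -0.84, -0.64, -0.82 and -0.66. With quantile normalization it was -0.72 (adjusted p = 0.0580). In all, 39 of the 46 differences at 12 h were below 0, with a median of -0.22 over core and cap and -0.05 over all probe sets. Above 0 were 15.2% of the members and 41.6% of all probe sets.

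**Figure D5:**
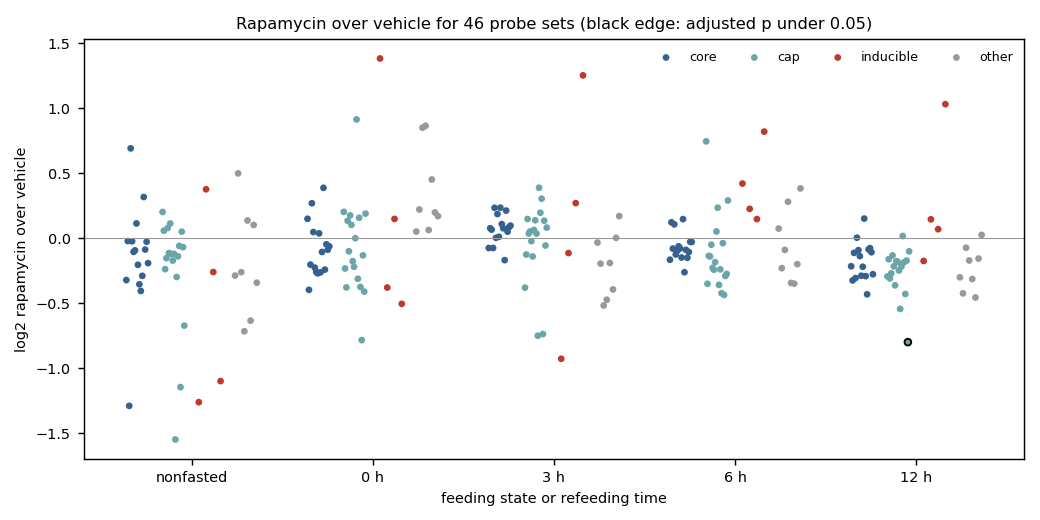
Log2 difference of rapamycin over vehicle (vertical axis) for the 46 tested probe sets in nonfasted mice and at 0, 3, 6 and 12 h of refeeding, coloured by class. Only Psmd14 at 12 h, with a black edge, had an adjusted p under 0.05.

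Elsewhere Psmd14 read 113 and 109 in nonfasted rapamycin mice and 122 and 111 in nonfasted vehicle mice, against 192, 167 and 201 in vehicle mice at 0 h and 134.3, 184, 192, 134 and 159 in fasted uninjected mice. At 0, 3 and 6 h rapamycin mice read 155, 143 and 124, then 164, 200 and 191, then 190, 206 and 168. Vehicle mice at 3 and 6 h read 183, 221 and 174, then 246, 196 and 241. The drug groups overlapped at 3 and 6 h and did not at 0 h, where the difference missed the threshold, and both nonfasted groups lay below all other groups apart from 1 rapamycin array at 12 h. For the inducible genes, the rapamycin over vehicle differences at 12 h were 0.07 for Psmb8, 1.03 for Psmb9, -0.17 for Psmb10 and 0.15 for Psme1, with adjusted p of 0.809 or above. Their standard errors were 0.33, 0.68, 0.71 and 0.31. The interaction of refeeding with the drug, an F-test over the changes of the drug difference at 3, 6 and 12 h from that at 0 h, called 0 of the 46 members, beside 1.31% of all probe sets. Its lowest adjusted p was 0.197, and 6 members had an unadjusted p under 0.05. The 0 h pair that serves as its baseline crosses the array sets.

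The injection itself and the handling around it were compared within set 1. In vehicle mice at 0 h against fasted uninjected mice, 4 members were higher and 0 lower, beside 2.94% and 2.94% of all probe sets (5.88% in either direction). Psmb6 (1.63 ± 0.43, adjusted p = 0.0282), Psmb5 (_s_at, 0.63 ± 0.12, adjusted p = 0.00811), Psmc2 (0.76, adjusted p = 0.0453) and Psmc3 (_i_at, 0.52, adjusted p = 0.0382) passed. Psmb5 and Psmb6 did not overlap between the groups, the other Psmb5 probe set had -0.37 (adjusted p = 0.241), and Psmb8 and Psme1 had -0.40 and -0.32 without passing. The count was 10 without vehicle array 3, 0 without vehicle array 1, 2 without vehicle array 2, and 2 without fasted uninjected array 1, 2 or 4. Fitted on these 8 arrays alone, 0 members passed (limma, 8 with an unadjusted p under 0.05).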

How the data were processed

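Liver RNA of 33 mice was hybridised to MG-U74Av2 arrays, 1 a mouse. The intensity values are the authors' deposited average differences, with negative values kept and a floor of 30 named per the file headers. Floored at 30, the arrays average 118 to 124. The array software settings and the scaling target are not given in the sources used here. A second table of the same arrays numbers its columns without sample names, so its detection calls served only to count arrays per probe set, and 66 further columns of per-array values were not used.

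Intensities below 6.31 (0.1 of the mean trimmed mean) were set to it and taken to log2. The log2 values computed from the deposited intensities were fitted with limma 3.58.1 (R 4.3.3) as 11 group means, and eBayes p-values were adjusted by Benjamini-Hochberg over 6568 probe sets at 0.05. This moderated limma test gives every adjusted p in the text, and its code was tested on simulated data. Sample sizes of 2 to 5 mice limit the precision. Tables used Python 3.11.15 with pandas 2.3.3.

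Members, lists and tests were chosen with earlier results of these data known. Named throughout were Psmb5 to Psmb10, Psme1 and Psme3, and otherwise, per comparison and role, up to 3 passing probe sets with the largest log2 difference whose higher group lay above 30 on every array. Values for every mouse were given for the inducible genes and for the 8 other members with the smallest F-test p and every group mean above 30. Psmb6 and Psme3 fall outside that last rule. Samples of equal replicate number do not pair mice: their deviations from group means correlated from -0.43 to 0.21 over 146 pairs. Alternatives covered scaling, floor, filter, array set, a replicate block, separate fits and each array left out.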

Additional observations from a re-analysis of the deposited data

Results flagged for a closer look

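Among the 5 fasted uninjected mice, 1 mouse stood apart from the other 4 by Dixon's test for 5 of the 46 tested probe sets, and chance gives about 1 in 20 groups. Psma7 read 400.0 in mouse 5 against 311.3 to 324 in the others, and Psmb8 read 88.0 in mouse 2 against 34 to 49.3. Mouse 1 was low for Psmc1 (108.5 against 157 to 164), Psmc2 (101.1 against 129 to 140) and Psmd1 (-68.2 against 47 to 65). The groups of 2 and 3 mice were too small for this test.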

How the results depend on the processing

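Counts of called members moved by over 1.5 times under 36 of the 198 combinations of a comparison with another setting, single arrays left out apart, and by less in 162. The cause was not tested. With quantile normalization the count was 3 for vehicle at 3 h over 0 h (2 higher, 1 lower), 4 at 6 h (3 and 1), 0 for rapamycin over vehicle at 12 h (5 with an unadjusted limma p under 0.05) and 9 for nonfasted over 12 h refed vehicle mice. With 1 trimmed mean it was 6 for vehicle at 6 h over 0 h, 4 for rapamycin over vehicle at 0 h (all lower) and 9 for nonfasted over 12 h refed vehicle mice, and the nonfasted over 0 h vehicle split was 4 higher and 23 lower, against 6 and 13. A floor of 30 gave 5 for vehicle at 12 h over 3 h, 1 for rapamycin at 3 h over 0 h and 1 for rapamycin over vehicle in nonfasted mice.

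With array set in the model the count was 0 for vehicle at 3 h over 0 h (5 with an unadjusted limma p under 0.05), 5 at 12 h, 2 for rapamycin at 6 h over 0 h and 11 for nonfasted over 0 h vehicle mice. With array set and a floor of 30 these were 0 (6 with an unadjusted limma p under 0.05), 6, 3 and 11, beside 5 for vehicle at 12 h over 3 h, 1 for rapamycin at 3 h over 0 h, 2 for rapamycin over vehicle at 12 h and 1 in nonfasted mice. There the sign turned for Psmb10 in vehicle mice at 3 h over 0 h (-0.14), Psmb9 in rapamycin mice at 6 h over 0 h (-0.018) and Psmg1 in nonfasted over 0 h vehicle mice (-0.0090), each with an adjusted p of 1. No detection filter gave 7 for vehicle at 6 h over 0 h, 5 for rapamycin at 6 h over 0 h and 2 for vehicle at 0 h over fasted uninjected mice.

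With the replicate number as a block, 0 members passed for rapamycin over vehicle at 12 h (6 with an unadjusted limma p under 0.05) and 2 for vehicle at 0 h over fasted uninjected mice, and no other count moved by over 1.5 times. Fitting only the groups compared gave 2 at 3 h, 2 at 6 h and 6 at 12 h over 0 h with vehicle, 3 at 6 h and 8 at 12 h with rapamycin, 0 for rapamycin over vehicle at 12 h (10 with an unadjusted limma p under 0.05), 7 for nonfasted over 0 h vehicle mice, 0 for vehicle at 0 h over fasted uninjected mice (8) and 0 for nonfasted over 12 h refed vehicle mice (28).

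Leaving out 1 array at a time, the counts ranged from 12 to 21 for nonfasted rapamycin over fasted uninjected mice (12 without nonfasted rapamycin array 1), from 10 to 21 for nonfasted over 0 h vehicle mice (10 without nonfasted vehicle array 2) and from 4 to 14 for nonfasted over 12 h refed vehicle mice. With vehicle they were 3 to 11 at 3 h, 3 to 8 at 6 h and 15 to 21 at 12 h over 0 h, 1 to 3 at 12 h over 3 h, 16 to 23 at 6 h over fasted uninjected mice and 0 to 10 at 0 h over fasted uninjected mice. With rapamycin they were 0 to 1 at 3 h (1 without array 1 at 0 h), 2 to 10 at 6 h and 7 to 14 at 12 h over 0 h. For rapamycin over vehicle they were 0 to 4 at 0 h (4 without vehicle array 3 and 1 without rapamycin array 1), 0 to 0 at 3 h and 6 h, 0 to 1 at 12 h and 0 to 0 in nonfasted mice, and 0 to 0 for the interaction. Psmb8 and Psmb10 in both nonfasted pairs and in vehicle mice at 12 h kept their calls without any 1 array. Groups of 2 mice and members near the lower limit of the array, such as Psmb9, Psmd12 and Psmg2, limit what can be read. The values of the second deposited table were not run as an alternative, since its columns could not be tied to mice.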
